A study of Mus musculus with 3 samples.

Results

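The immediate early and early response genes are the genes that cells transcribe within minutes of a stimulus, from regulators that are already present. The set described here holds 34 of the 55357 genes in the deposited matrices. They were listed by name, with no threshold on their values but with earlier results of these data known. All 34 were found. The genes were followed in single cells of the left perilesional brain of male C57BL/6 mice aged 6 to 8 weeks. There were 3 libraries, 1 per group: sham-operated mice, mice with traumatic brain injury (TBI) that received phosphate-buffered saline for 3 days (TBI+PBS), and mice with TBI that received interleukin-25 (TBI+IL-25), at 1 µg per mouse no later than 30 minutes from injury and then daily for 3 days. The number of animals behind each library is not given in the sources used here. In each group collagenases and a neutral protease were used to free the cells before capture on a droplet platform that counts the 3' ends of messenger RNAs. No group was replicated, so each difference compares libraries and not conditions, and every interval covers counting error only.

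As background, most of these genes are switched on by kinase cascades that act on factors already present in the cell. These factors include the serum response factor at the CArG box, CREB at the cyclic AMP response element (CRE) and NF-kB at its sites. The first wave encodes transcription factors (the FOS and JUN subunits of AP-1, the EGR zinc finger factors, ATF3, the NR4A nuclear receptors and Kruppel-like factors). A second group encodes brakes on the same signals: phosphatases of MAP kinases, an inhibitor of mRNA stability and inhibitors of NF-kB. In brain tissue the genes report neuronal firing, growth factor signals and injury, and microglia in particular are known to transcribe them while tissue is being digested.

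Cells were sorted into classes by clustering, with the 34 genes and 6 related lists left out of the clustering, and each class was called "like" a cell type from marker genes. Counts of unique molecular identifiers (UMIs) were summed per class and library and are given as CPM, counts per 1e6 of the class total. Every compared class had all its own markers above 3 counts, except neutrophil-like cells with 7 of 8. This is no separate check, as the classes were named from these markers. The libraries held 8720, 10303 and 13527 kept cells in the order sham, TBI+PBS and TBI+IL-25, with medians of 4112.5, 4667 and 3839 UMIs, and the same order is used for every set of 3 values below. Microglia-like cells numbered 5001, 4594 and 5534 and astrocyte-like cells 3258, 3104 and 6054. The other compared classes were far smaller, and the 37 endothelial-like and 46 oligodendrocyte-like cells of sham were the fewest in that library with the 44 choroid plexus-like cells. Neutrophil-like cells numbered 0, 11 and 47 and were compared in TBI+IL-25 only, with 108514 UMIs. The TBI+IL-25 library also stood apart in kind: ribosomal RNA took 0.176%, 0.204% and 2.01% of UMIs, haemoglobin genes stood at 98.9, 111 and 0.147 CPM, and its file header names another Cell Ranger version. These differences cannot be told apart from the treatment.

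The promoters of 6 genes are shown because they hold the elements that the background names, in genes whose levels are given below. They are the 250 bases upstream of the start in RefSeq (GRCm38.p6), written 5' to 3' on the gene's strand, and capitals mark the element named before each group. The CRE is spelled TGACGTCA and lay in the phosphatase gene Dusp1 and the antiproliferative gene Btg2:
Dusp1, chr17:26508473-26508722, minus strand: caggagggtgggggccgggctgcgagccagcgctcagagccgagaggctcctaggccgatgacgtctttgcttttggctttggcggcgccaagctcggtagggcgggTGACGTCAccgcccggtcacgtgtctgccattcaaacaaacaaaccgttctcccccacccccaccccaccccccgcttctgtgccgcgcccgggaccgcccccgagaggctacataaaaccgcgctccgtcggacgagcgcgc
Btg2, chr1:134079156-134079405, minus strand: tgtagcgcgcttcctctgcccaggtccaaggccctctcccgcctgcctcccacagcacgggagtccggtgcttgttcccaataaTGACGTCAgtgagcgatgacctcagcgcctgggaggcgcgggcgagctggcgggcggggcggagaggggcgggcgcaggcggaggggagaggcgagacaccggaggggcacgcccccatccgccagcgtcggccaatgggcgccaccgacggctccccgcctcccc
The CArG box lay in Zfp36, whose protein speeds the decay of cytokine mRNAs, and in Dusp5, a phosphatase of nuclear ERK, where 2 boxes adjoin:
Zfp36, chr7:28379229-28379478, minus strand: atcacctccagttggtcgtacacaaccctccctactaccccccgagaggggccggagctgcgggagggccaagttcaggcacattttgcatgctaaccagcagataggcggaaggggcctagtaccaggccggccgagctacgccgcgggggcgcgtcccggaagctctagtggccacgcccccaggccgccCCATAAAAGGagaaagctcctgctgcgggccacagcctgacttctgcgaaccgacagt
Dusp5, chr19:53528895-53529144, plus strand: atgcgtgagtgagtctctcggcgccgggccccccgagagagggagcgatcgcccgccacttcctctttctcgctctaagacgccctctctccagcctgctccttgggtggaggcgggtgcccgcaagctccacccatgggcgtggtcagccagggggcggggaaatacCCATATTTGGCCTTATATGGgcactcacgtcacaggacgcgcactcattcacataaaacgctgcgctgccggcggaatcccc
The NF-kB site is capitalised in Nfkbia, the inhibitor of NF-kB, and in Fos, where the capitals also mark the TATA box (TATAAA) near the start:
Fos, chr12:85473640-85473889, plus strand: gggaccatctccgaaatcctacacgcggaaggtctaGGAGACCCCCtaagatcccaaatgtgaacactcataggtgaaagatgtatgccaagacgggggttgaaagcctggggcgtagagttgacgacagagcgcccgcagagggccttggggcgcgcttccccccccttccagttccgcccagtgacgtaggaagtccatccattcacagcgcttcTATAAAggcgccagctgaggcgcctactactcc
Nfkbia, chr12:55492648-55492897, minus strand: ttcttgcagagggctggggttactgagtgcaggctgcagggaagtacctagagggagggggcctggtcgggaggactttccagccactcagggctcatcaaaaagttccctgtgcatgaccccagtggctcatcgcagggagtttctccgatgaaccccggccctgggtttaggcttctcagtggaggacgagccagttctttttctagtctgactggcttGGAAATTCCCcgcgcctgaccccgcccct

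RefSeq promoters were matched by symbol for 27 of the 34 genes. Both strands were searched for 5 elements. The NF-kB site was found in 6 of the 27 (22.2%) against 4.46% of 27025 genes with a promoter, in Fos, Fosb, Fosl2, Maff, Ier3 and Nfkbia. The CArG box was found in 3 (11.1% against 1.62%), Egr2, Dusp5 and Zfp36, and the CRE in 3 (11.1% against 1.77%), Maff, Dusp1 and Btg2. TATAAA was found in 4 (14.8% against 14.3%), and the AP-1 site TGACTCA in 0 against 5.16% of all genes. A match describes the letters of this window and not a bound site.

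Few of the genes were at a like level in all cell types, and most ran from a high level in microglia-like, other immune or endothelial-like cells to a low level in oligodendrocyte-like, choroid plexus-like, neuroblast-like or astrocyte-like cells. The highest class was microglia-like for 16, 12 and 13 genes. A gene was called general in a library when its highest class was at most 5 times its lowest, among classes with at least 30 cells and 100000 UMIs. By that rule 1 of 31 measured genes was general in sham (Atf4), 0 of 34 in TBI+PBS and 1 of 34 in TBI+IL-25 (Jund), where all measured genes gave 25.7%, 25.3% and 14%. No gene of the set was general in more than 1 library. The rule compared 6, 8 and 10 classes. With the 6 classes that all libraries share the counts were 1, 0 and 2, where all measured genes gave 25.7%, 33.0% and 31.5%. Being detected was more widespread than being level: 17 genes had more than 3 UMIs in every compared class of every library, among them Fos, Jun, Jund, Egr1, Klf6, Dusp1, Zfp36 and Nfkbia. The same count over all genes was not made. Detection can also come from RNA free in the droplets. The 17 include Fosb, Klf2 and Egr1, whose sham astrocyte-like UMIs were all removed by the free RNA subtraction given below.

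**Figure D1:**
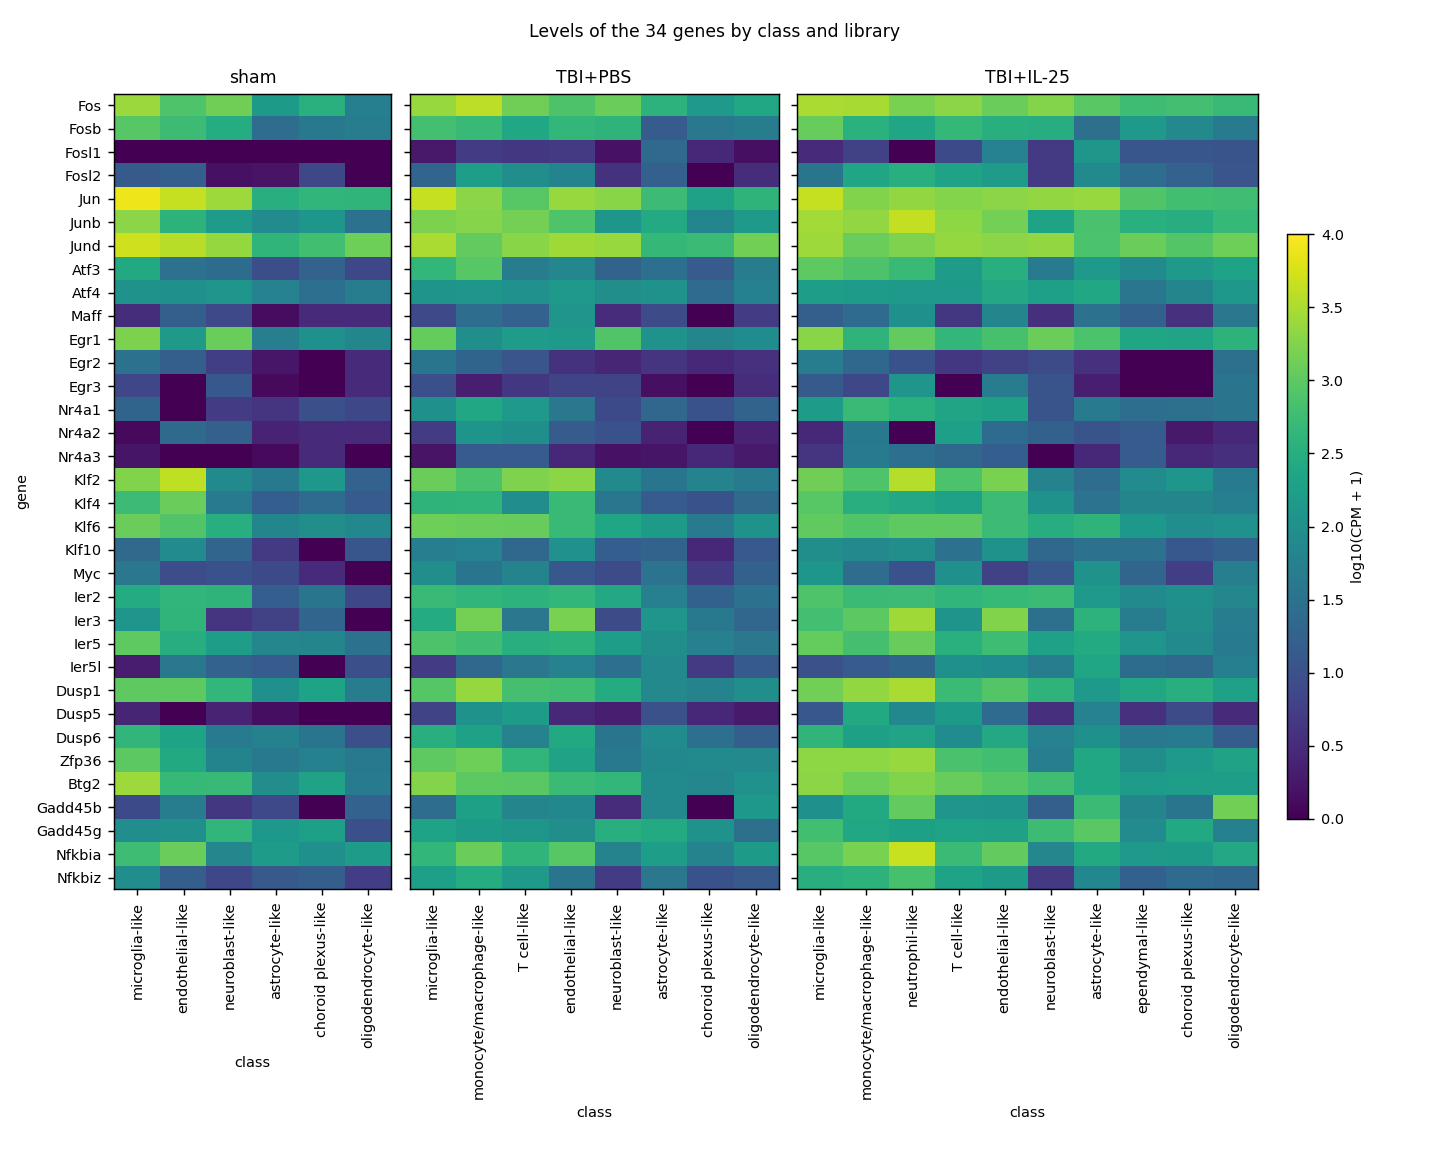
Level of each of the 34 genes, as log10(CPM + 1), in each compared class of the sham, TBI+PBS and TBI+IL-25 libraries. Microglia-like cells stand at the left of each panel; Fos, Jun, Jund and Egr1 are bright there in all 3 libraries, and the astrocyte-like column is dark in sham and brightest in TBI+IL-25.

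The general genes of sham and of TBI+IL-25 are described first. Atf4 encodes the effector of the integrated stress response, whose output is controlled mainly at translation. In sham its CPM ran from 28.1 in choroid plexus-like cells to 127 in neuroblast-like cells, in TBI+PBS from 24.2 in choroid plexus-like to 143 in endothelial-like cells, and in TBI+IL-25 from 35.5 in ependymal-like to 262 in endothelial-like cells. Jund, the JUN subunit known for steady expression, ran from 419.9 to 5148 in sham, 458 to 3066 in TBI+PBS and 738 to 2603 in TBI+IL-25, lowest in astrocyte-like and highest in microglia-like cells each time. The narrower range in TBI+IL-25 thus came with a lower top and a higher bottom than in sham.

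A gene was called specific when its highest class was at least 3 times the second. There were 9 such genes of 31 in sham (all measured genes 23.7%), 2 of 34 in TBI+PBS (18.9%) and 1 of 34 in TBI+IL-25 (17.7%). In sham 7 of the 9 were highest in microglia-like cells (Junb, Atf3, Myc, Ier5, Zfp36, Btg2 and Nfkbiz) and the other 2, Klf10 and Ier3, in endothelial-like cells, with 11 and 54 UMIs there. In TBI+PBS the 2 were Fosl1 in astrocyte-like and Maff in endothelial-like cells, and in TBI+IL-25 the 1 was Nr4a2 in T cell-like cells. The numbers depend on which classes were compared, and over the 6 shared classes the counts were 9, 9 and 4, where all measured genes gave 23.7%, 22.9% and 22.2%, so that the first 2 counts lay near the background. The sham count became 2 when each cell was classed by its own marker score in place of its cluster.

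Microglia-like cells held most of these genes at a higher level than astrocyte-like cells in every library, and the median gap was smaller in the injured libraries. Among genes with at least 50 UMIs over both classes, 26 of 30 were at least 2-fold higher in microglia-like cells in sham, 25 of 33 in TBI+PBS and 21 of 34 in TBI+IL-25, where all genes gave 22.4%, 21.0% and 22.8%. The median ratio of microglia-like to astrocyte-like CPM over the set was 17.5, 5.95 and 3.37, and over all genes 0.925, 0.890 and 0.929. Not each gene followed, as the ratio was 34.6, 47.0 and 41.4 for Fosb and 44.2, 35.2 and 52.2 for Klf2. The medians leave out the unnamed cluster 6, described below, and were not computed with it. Counted as astrocyte-like, it raised astrocyte-like Fos, Jun and Junb of TBI+PBS to 743, 1156 and 433 CPM. Those of TBI+IL-25 were then 905, 2275 and 667. Under the same minimum, 1 gene was at least 2-fold higher in astrocyte-like cells in sham (Ier5l), joined in TBI+PBS by Fosl1 and Gadd45b and in TBI+IL-25 also by Fosl2, Maff, Nr4a2 and Dusp5 (30.3%, 30.3% and 28.9% of all genes). Nr4a2 fell under the minimum in sham, with 5 microglial and 22 astrocyte-like UMIs, and its ratio there was 0.169 (95% interval 0.0500 to 0.458).

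Free RNA was estimated because it adds transcripts of a class to the droplets of another. Microglia markers stood at 1382, 1277 and 647 CPM in astrocyte-like cells, which corresponds to an estimated 6.04%, 6.16% and 4.28% of their UMIs. When the summed profile of the library was subtracted at that share, the Fos level in astrocyte-like cells went to 65.2, 300.0 and 909 CPM and Jun to 57.2, 388 and 2410.0. Fosb went to 0, 0 and 1.18, Klf2 to 0, 0 and 0 and Egr1 to 0, 70.7 and 696. The subtraction thus removed all of the sham astrocyte-like Fosb, Klf2 and Egr1, and left most of the Fos, Jun and Egr1 of the injured libraries. Endothelial-like cells had the largest estimate of the classes compared in sham, 25.5%.

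Of the FOS subunits of AP-1, Fos and Fosb stood higher in microglia-like than in astrocyte-like cells of every library, while Fosl1, and in TBI+IL-25 also Fosl2, stood higher in astrocyte-like cells. Fos stood at 2531, 2388 and 3134 CPM in microglia-like cells and 150.0, 389 and 961 in astrocyte-like cells. The microglial level in TBI+PBS was 0.944 times sham, or 1.05 when the median ratio of all genes was set to 1, while the astrocyte-like level was 2.59 (95% interval 2.46 to 2.73) times sham in TBI+PBS and 6.41 (95% interval 6.13 to 6.70) times sham in TBI+IL-25. In TBI+PBS the highest Fos level lay in monocyte/macrophage-like cells, at 3984. Fosb, the paralogue whose short splice form is known for its long life, stood at 909.9, 629 and 1185 in microglia-like cells and only 26.3, 13.4 and 28.6 in astrocyte-like cells, past 2-fold of sham in neither injured library. Fosl1, which encodes FRA-1, had 0 UMIs in every compared class of sham and reached 22.4 and 129 CPM in astrocyte-like cells of the injured libraries, at least 109-fold and 631-fold above the limit of 3 counts. Its second class in TBI+IL-25 was endothelial-like at 58.3 CPM, and microglia-like cells held 0.875 and 2.11. Fosl2, which encodes FRA-2, stood at 0.616, 16.1 and 82.2 CPM in astrocyte-like cells and higher in monocyte/macrophage-like cells (168 and 224 in TBI+PBS and TBI+IL-25) and in neutrophil-like cells of TBI+IL-25 (332).

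The JUN subunits, which pair with each other or with FOS proteins, differed in microglia-like cells: Jun and Jund were lower than sham in both injured libraries, and Junb was lower in TBI+PBS and higher in TBI+IL-25. Jun stood at 7962, 4458 and 4441 CPM in microglia-like cells, 0.56 (95% interval 0.556 to 0.564) and 0.558 (95% interval 0.554 to 0.562) times sham in the injured libraries. In astrocyte-like cells Jun stood at 323, 542 and 2451, 1.68 (95% interval 1.62 to 1.75) and 7.60 (95% interval 7.37 to 7.83) times sham. Microglia-like cells thus held 24.7 times the astrocyte-like Jun level in sham and 1.81 times in TBI+IL-25. Jund in microglia-like cells stood at 0.596 (95% interval 0.59 to 0.601) and 0.506 (95% interval 0.501 to 0.51) times sham. Junb stood at 2016, 1646 and 2780.1 in microglia-like cells (0.816 and 1.38 times sham), 84.1, 277 and 700.5 in astrocyte-like cells and 4229.9 in the neutrophil-like cells of TBI+IL-25, its highest class there. The astrocyte-like ratio of Junb to sham was 3.29 (95% interval 3.08 to 3.52) in TBI+PBS and 8.33 (95% interval 7.86 to 8.84) in TBI+IL-25. The microglial directions of all 3 held when the median ratio of all genes was set to 1.

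Atf3 and the small MAF factor Maff differed by both class and library. Atf3, a stress-induced member of the ATF family known to restrain inflammatory genes in myeloid cells, stood at 264, 442 and 1034 CPM in microglia-like cells and 8.00, 27.8 and 141 in astrocyte-like cells. Its ratio to sham was 3.92 (95% interval 3.80 to 4.04) and 17.7 (95% interval 14.7 to 21.4) in TBI+IL-25, and its highest class in TBI+PBS was monocyte/macrophage-like at 923. The steps between libraries went the same way in both large classes. Maff, which lacks an activation domain of its own, was rare in sham (2.34 CPM in microglia-like and 0.342 in astrocyte-like cells), and in the injured libraries stood at 6.72 and 15.0 in microglia-like and 7.15 and 30.1 in astrocyte-like cells. Its endothelial-like level was 15.4, 119 and 68.1 CPM. Atf4 in astrocyte-like cells stood at 59.4, 107 and 243, 4.09 (95% interval 3.81 to 4.404) times sham in TBI+IL-25, and in microglia-like cells at 114, 118 and 169.

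The EGR zinc finger factors differed in breadth. Egr1, a growth- and activity-induced factor, stood at 1609, 1149 and 1928 CPM in microglia-like cells and 1223, 817 and 1242 in neuroblast-like cells, both high in every library. In astrocyte-like cells it stood at 51.0, 110.4 and 723, 2.17 (95% interval 1.98 to 2.38) times sham in TBI+PBS and 14.2 (95% interval 13.2 to 15.3) times in TBI+IL-25. Egr2, known for its part in myelination and in myeloid and T cells, was highest in microglia-like cells of each library at 30.3, 34.6 and 48.5 and stayed at or below 3.04 CPM in astrocyte-like cells. Egr3, a relative induced by the same stimuli, stood at 6.01, 8.63 and 12.6 in microglia-like cells, and highest in neutrophil-like cells of TBI+IL-25 at 119.8, which rests on 13 UMIs.

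The NR4A nuclear receptors, which act without a known hormone, were highest in monocyte/macrophage-like or T cell-like cells in both injured libraries. Nr4a1, induced by antigen receptor and inflammatory signals, stood at 18.3, 101 and 161 CPM in microglia-like cells, 5.52 (95% interval 4.94 to 6.18) and 8.80 (95% interval 7.90 to 9.83) times sham. It was highest in monocyte/macrophage-like cells, at 249 and 513 in TBI+PBS and TBI+IL-25. Nr4a2 was the 1 gene specific in TBI+IL-25, with 183 CPM in T cell-like cells against 40.6 in monocyte/macrophage-like cells. The free RNA estimate of those T cell-like cells was 22.4%, while the microglia-like level of Nr4a2 was 1.90. In TBI+PBS the same 2 classes held 98.3 and 116, so it was not specific there. Nr4a2 in microglia-like cells stood at 0.255, 3.98 and 1.90 and was the only gene of the set at or below 0.5 times TBI+PBS in TBI+IL-25 in a large class, at 0.477 (95% interval 0.335 to 0.672). Nr4a3 stood at 0.713, 0.596 and 3.00 in microglia-like and 0.274, 0.715 and 1.89 in astrocyte-like cells, and at 13.2 and 43.9 in monocyte/macrophage-like cells of the injured libraries.

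Of the Kruppel-like factors, Klf2 and Klf4 stood high in endothelial-like and microglia-like cells and low in astrocyte-like cells of every library. Klf2, a flow-induced factor that keeps endothelium and naive T cells quiescent, stood at 4184, 1982 and 1579.8 CPM in endothelial-like cells, 1769.6, 1208 and 1336 in microglia-like cells and 3576 in the neutrophil-like cells of TBI+IL-25. Klf4 stood at 1213, 490.4 and 544 in endothelial-like and 556, 405 and 911 in microglia-like cells. The endothelial-like levels of both were lower in the injured libraries than in sham, with the 37 sham cells and the free RNA estimate given above beside them. Klf6 in astrocyte-like cells stood at 67.0, 150.3 and 399.8, 5.96 (95% interval 5.58 to 6.38) times sham in TBI+IL-25, and in microglia-like cells at 1210.3, 1292 and 1058, where the ratio of TBI+IL-25 to sham was 0.874, or 1.01 with the median ratio of all genes set to 1. Klf10, known as a target of TGF-beta signals, stood at 23.3, 50.1 and 94.99 in microglia-like and 3.76, 18.1 and 29.6 in astrocyte-like cells. Myc, which drives growth and ribosome synthesis, stood at 37.4, 94.9 and 132 in microglia-like and 6.98, 32.5 and 110.0 in astrocyte-like cells, 3.54 (95% interval 3.27 to 3.83) and 15.8 (95% interval 12.9 to 19.4) times sham in TBI+IL-25.

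The 4 immediate early response genes differed in class. Ier3, whose product is tied to NF-kB and cell survival, stood at 124, 287 and 635 CPM in microglia-like cells and 4.99, 127 and 380.1 in astrocyte-like cells, and at 415, 1573 and 1716 in endothelial-like cells. Its astrocyte-like ratio to sham was 25.4 (95% interval 20.1 to 32.6) in TBI+PBS and 76.1 (95% interval 60.4 to 97.2) in TBI+IL-25. Ier5l, a poorly studied relative of Ier5, was the 1 gene higher in astrocyte-like than in microglia-like cells of every library by at least 2-fold, at 13.4, 74.0 and 235 against 1.12, 4.14 and 8.66 CPM. Ier2 stood at 289, 500.3 and 786 in microglia-like and 14.5, 54.0 and 145 in astrocyte-like cells, and at 398, 262 and 527 in neuroblast-like cells. Ier5, linked to the heat shock factor, stood at 999, 757 and 1142 in microglia-like cells, with no library past 2-fold of another, and at 70.7, 94.9 and 282 in astrocyte-like cells.

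The MAP kinase phosphatases, which switch off the kinases that induce the set, differed by family member. Dusp1, which acts on p38 and JNK, stood at 1009, 877 and 1394 CPM in microglia-like and 101, 75.8 and 143 in astrocyte-like cells, under 2-fold between each pair of libraries in both, although with the median ratio of all genes set to 1 the astrocyte-like ratio of TBI+IL-25 to TBI+PBS became 2.27. It was highest in monocyte/macrophage-like cells of TBI+PBS (2351) and neutrophil-like cells of TBI+IL-25 (3152). Dusp6, which acts on ERK in the cytoplasm, was likewise under 2-fold between each pair, at 430.5, 316 and 414 and 56.9, 84.8 and 102, and under the same scaling its astrocyte-like ratio of TBI+IL-25 to sham became 2.23. Dusp5 had 0.41, 8.67 and 57.4 CPM in astrocyte-like cells, 139.9 (95% interval 64.1 to 382) times sham in TBI+IL-25 from 6 sham UMIs, and stood highest at 107 and 263 in monocyte/macrophage-like and 163 and 148 in T cell-like cells of TBI+PBS and TBI+IL-25.

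Of the genes for growth arrest and mRNA decay, Gadd45b and Gadd45g were at least 2-fold higher than sham in both large classes of both injured libraries. Gadd45b, a stress sensor that binds kinases of the p38 and JNK pathways, stood at 6.70, 74.3 and 529 CPM in astrocyte-like cells, 11.1 (95% interval 8.99 to 13.8) and 79.0 (95% interval 64.7 to 97.3) times sham. In oligodendrocyte-like cells it stood at 17.2, 134 and 1397, from 8 UMIs in sham, its highest class in TBI+IL-25, and in microglia-like cells at 6.92, 26.0 and 101. Gadd45g stood at 134, 281 and 937 in astrocyte-like, 91.9, 205 and 618 in microglia-like and 421, 336 and 552 in neuroblast-like cells. Zfp36 stood at 988, 1018 and 2113 in microglia-like cells, where it was 2.08 (95% interval 2.05 to 2.11) times TBI+PBS in TBI+IL-25, and at 40.2, 71.8 and 237 in astrocyte-like cells. Btg2 was lower than sham in microglia-like cells of both injured libraries, at 2578, 1819.9 and 2024, and stood at 92.8, 77.5 and 236 in astrocyte-like cells.

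The NF-kB inhibitors were highest in neutrophil-like cells of TBI+IL-25, the only library where that class was compared, and in monocyte/macrophage-like cells of TBI+PBS. Nfkbia, which encodes IkB-alpha and is itself induced by NF-kB, stood at 4635 CPM in neutrophil-like cells of TBI+IL-25, 1266 and 1569 in monocyte/macrophage-like cells of the injured libraries and 1205, 914 and 1108 in endothelial-like cells. In microglia-like cells it stood at 567, 441 and 928, 2.10 (95% interval 2.06 to 2.15) times TBI+PBS in TBI+IL-25. In astrocyte-like cells it stood at 156, 172 and 266. Nfkbiz, a nuclear IkB needed for a later wave of inflammatory genes, stood at 91.2, 183 and 321 in microglia-like and 12.0, 37.6 and 72.4 in astrocyte-like cells, 3.52 (95% interval 3.34 to 3.70) and 6.01 (95% interval 5.14 to 7.07) times sham in TBI+IL-25.

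**Figure D2:**
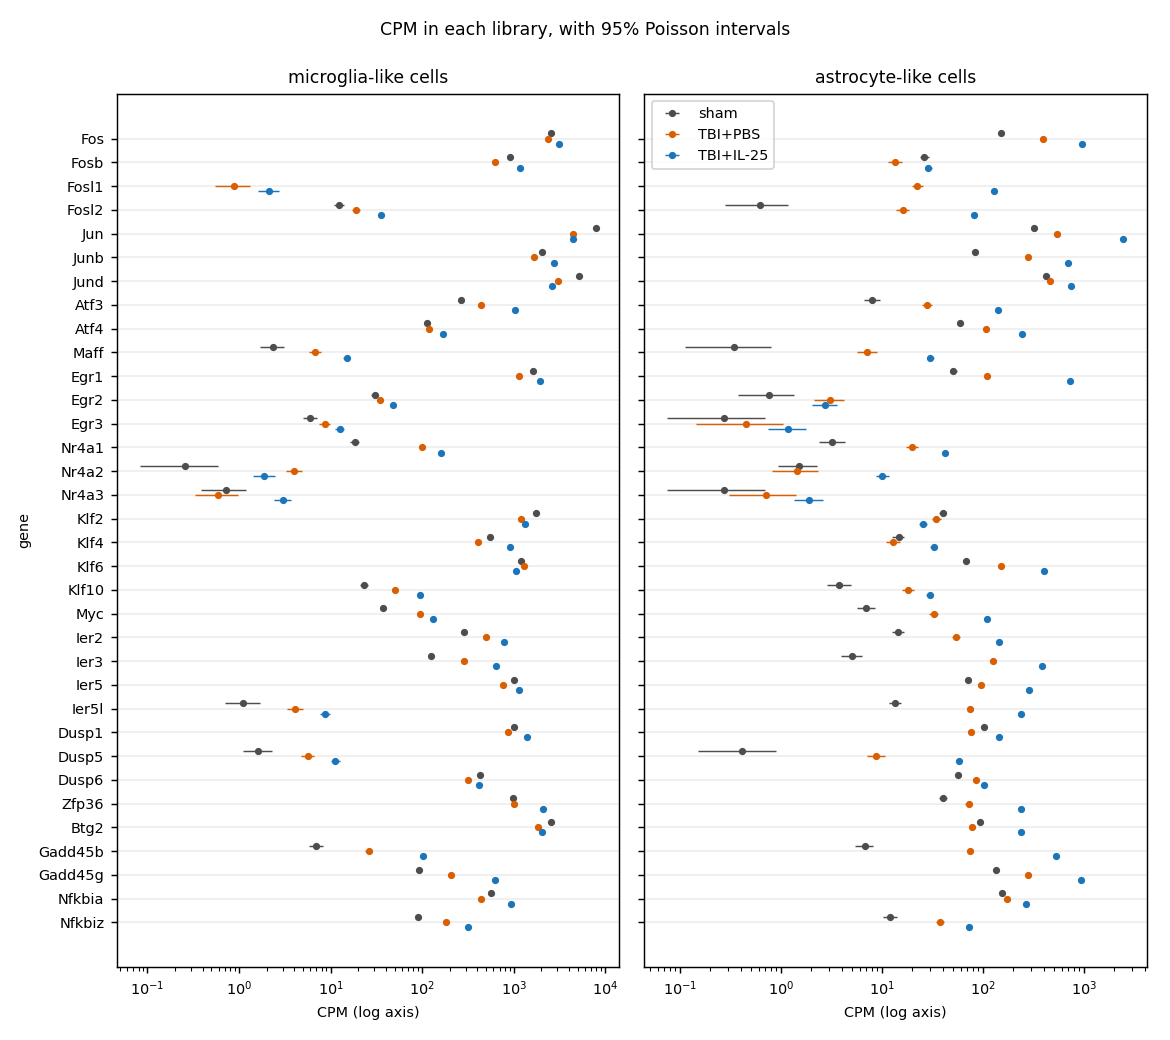
CPM of each gene in microglia-like (left) and astrocyte-like (right) cells on a log axis, with 1 point per library and exact 95% Poisson intervals for counting error; genes at 0 UMIs have no point. In astrocyte-like cells 28 genes of TBI+IL-25 lie at least 2-fold above sham, while in microglia-like cells Jun and Jund of both injured libraries lie below sham.

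Counted over the set in the 2 large classes, nearly all genes past 2-fold were higher in the injured or the TBI+IL-25 library. More were past it in astrocyte-like than in microglia-like cells over whole classes, an order that was lost for TBI+IL-25 against TBI+PBS with cluster 6 counted as astrocyte-like (11 against 11 higher and 1 lower), and inside single clusters, as given below. In TBI+PBS against sham 19 of 32 genes with at least 20 UMIs were at least 2-fold higher in astrocyte-like cells and 0 lower, where all genes gave 6.19% and 3.7%. This count leaves out cluster 6 and was larger with it, as given below. In microglia-like cells 12 of 34 were higher and 0 lower (6.92% and 7.77%). The median log2 ratio of the set was 1.27 and 0.14 in these classes, and over all genes -0.02 and -0.16. The smaller classes of TBI+PBS differed. Choroid plexus-like cells had 1 of 18 genes higher and 7 lower than sham (4.30% and 3.60% of all genes), from 67 and 44 cells. Neuroblast-like cells had 0 of 25 higher and 1 lower (2.12% and 1.65%). Endothelial-like cells had 7 of 27 higher and 2 lower (13.1% and 6.00%). Oligodendrocyte-like cells had 12 of 26 higher and 0 lower (10.1% and 2.86%).

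In TBI+IL-25 against sham 28 of 34 were higher in astrocyte-like cells and 0 lower (12.5% and 25.3% of all genes), and in microglia-like cells 18 of 34 were higher and 0 lower (12% and 15.4%). The median log2 ratio was 2.77 and 1.08, and over all genes -0.30 and -0.20. The 2 comparisons share the sham library. Setting the median ratio of all genes to 1 moved every ratio by 0.16 and 0.20 log2 units in microglia-like cells and by 0.02 and 0.31 in astrocyte-like cells, which turned the microglial direction of Fos in TBI+PBS (0.944 to 1.05) and of Klf6 and Dusp6 in TBI+IL-25 (0.874 to 1.01 and 0.962 to 1.11), and no other direction of a measured gene against sham in these classes. It also took Jund, Dusp6 and Nfkbia past 2-fold in astrocyte-like cells of TBI+IL-25 (2.18, 2.23 and 2.12 times sham).

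**Figure D3:**
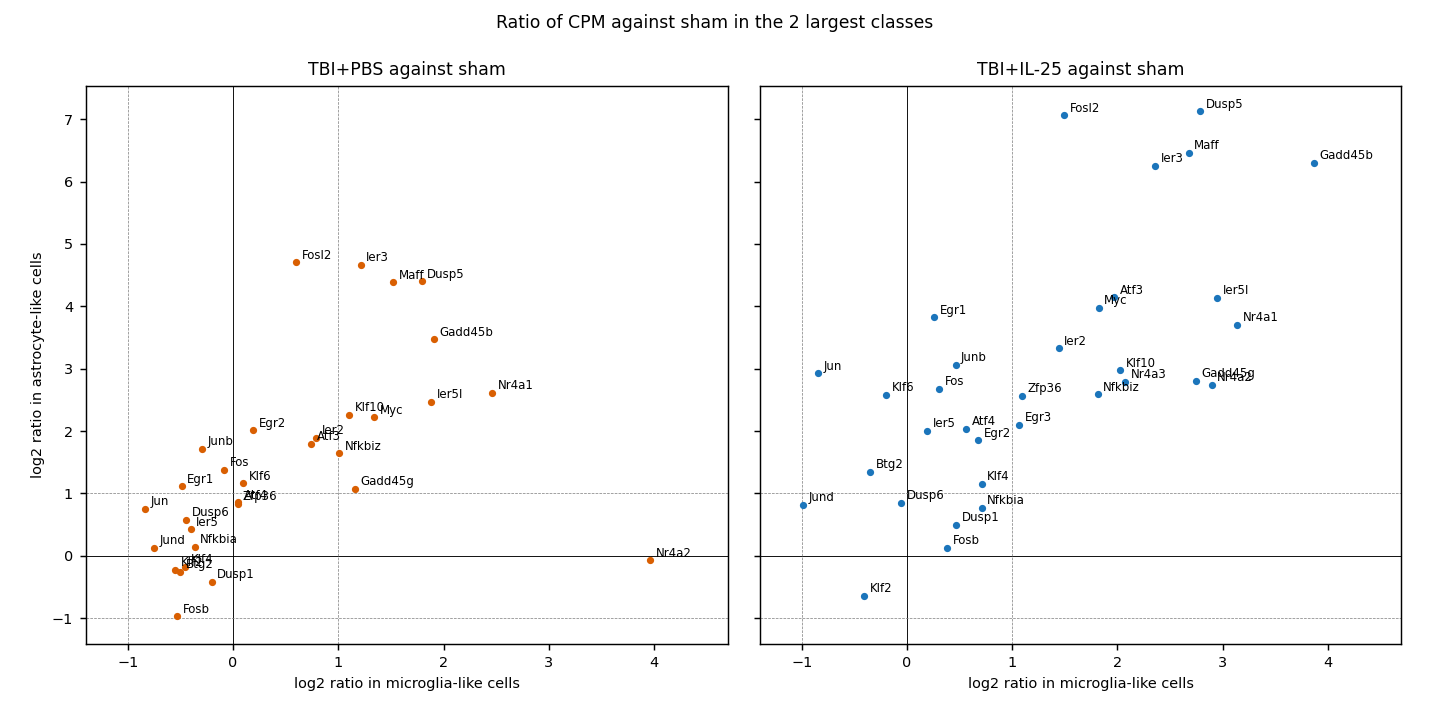
Log2 ratio of CPM to sham in microglia-like cells (horizontal) against astrocyte-like cells (vertical) for TBI+PBS (left) and TBI+IL-25 (right), 1 point per gene; dashed lines mark 2-fold, and Fosl1, at 0 in sham, and genes under 20 UMIs in a class are not drawn. Most points lie above the horizontal zero line, and Jun and Jund sit left of the vertical one in both panels.

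In TBI+IL-25 against TBI+PBS 26 of 34 genes were at least 2-fold higher in astrocyte-like cells and 0 lower (6.62% and 18.8% of all genes). In microglia-like cells 11 of 34 were higher and 1 lower (6.42% and 4.68%). The astrocyte-like count depends on how 1 cluster without a name is treated. Cluster 6 held all 10 astrocyte markers, but Olig2, a marker of oligodendrocyte precursors, was among its 10 leading genes. It made up 0.367%, 13.8% and 4.64% of the libraries and had high levels of the set in TBI+PBS, with Jun at 1857 CPM and Egr1 at 539. Counted as astrocyte-like, it left 11 of 34 genes at least 2-fold higher in TBI+IL-25 than in TBI+PBS, and Jun at 1.97 (95% interval 1.94 to 2.00) in place of 4.52 (95% interval 4.403 to 4.65). The TBI+PBS ratio of Jun to sham then became 3.56 (95% interval 3.45 to 3.67). Those of Atf4, Dusp6 and Zfp36, under 2-fold without cluster 6, became 2.49, 2.20 and 2.30. The genes already past 2-fold of sham in TBI+PBS stayed past it. The difference between the 2 injured libraries in their counts against sham thus also depends on this cluster. The share of all genes past 2-fold was not counted with cluster 6 included.

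Differences were also counted across classes. Among genes measured in all 6 classes shared with sham, 0 of 17 were at least 2-fold higher in 4 or more classes in TBI+PBS (0.501% of all such genes) and 0 were lower (0.0683%). In TBI+IL-25 9 of 21 were higher in 4 or more (3%) and 0 lower (1.26%): Junb, Atf3, Atf4, Egr1, Klf4, Ier2, Ier3, Ier5l and Zfp36. Ier3 and Ier5l were past 2-fold in all 6, including oligodendrocyte-like cells for Ier3 and choroid plexus-like cells for Ier5l, where sham had 0 UMIs and the folds are at least 7.18 and 3.32. Of the other 12, 5 were past it in 1 class and 4 in none. The minimum of 20 UMIs is summed over both libraries, so a gene can pass it through its TBI+IL-25 counts alone. Atf3, Klf4, Ier3 and Ier5l, all among the 9, were not measured in all 6 classes in TBI+PBS against sham. Against TBI+PBS, over 8 classes, 9 of 22 were higher in 4 or more (1.15%) and 0 lower (0.644%), with Atf3 in 7 classes and Egr1, Klf4 and Ier3 in 6. The sham classes other than the 2 large ones and neuroblast-like cells held 37 to 46 cells each. Genes under the minimum in any class are left out of these counts. In TBI+PBS against sham, Ier3 was at least 2-fold higher in 5 of its 5 measured classes, Nr4a1 in 4 of 5 and Nfkbiz in 4 of 4. In TBI+IL-25 against sham, Fosl2, Nr4a1 and Gadd45b were so in 5 of 5 and Nfkbiz in 4 of 5.

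Within astrocyte-like cells the levels differed by cluster. Clusters 2 and 7 stayed low in every library: Jun stood at 254, 145 and 149 CPM in cluster 2, and Gadd45b at 8.98, 12.7 and 25.6. Cluster 3, of which 2768 of 2818 cells came from TBI+IL-25, and cluster 9, with 1, 396 and 1247 cells, stood highest for Jun in TBI+IL-25. In TBI+IL-25 Jun stood at 3244 in cluster 3 and 2252 in cluster 9, and Egr1 at 899 and 674. The 396 TBI+PBS cells of cluster 9 had Jun at 1472, Gadd45b at 490.2 and Fosl1 at 134, against 145, 12.7 and 0 in its cluster 2. Cluster 14, led by Lcn2 and with 1, 355 and 375 cells, had the highest Ier3, 415 and 785 CPM in TBI+PBS and TBI+IL-25. Cluster 9 was shallow, with a median of 811 UMIs per cell.

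The largest astrocyte-like clusters of sham were 7 and 2, with 1441 and 947 of its 3258 cells. Cluster 2 was also the largest of TBI+PBS, with 1130 of 3104 cells, followed by cluster 8 with 708 (631 in sham), while cluster 3 was the largest of TBI+IL-25, with 2768 of 6054. Inside cluster 2, the astrocyte-like cluster that each pair of libraries fills most, 1 gene was at least 2-fold higher and 1 lower in TBI+PBS than in sham. In TBI+IL-25 4 were higher and 1 lower than in sham, and 2 higher than in TBI+PBS. Jun, 7.60 times sham over the whole class in TBI+IL-25, was 0.588 times sham inside cluster 2, and Fos in TBI+PBS was 2.59 and 0.916 times. Inside the like microglial cluster 1 the counts were 1 higher and 1 lower, then 6 higher, then 3 higher. The share of all genes past 2-fold was not counted inside either cluster, so these counts have no background. Clusters group cells of like expression, so a comparison inside 1 cluster leaves out cells whose expression placed them elsewhere.

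In microglia-like cells the clusters differed by gene. Clusters 4 and 5 held most sham cells, while cluster 1 held more cells of TBI+PBS, and cluster 0, led by Hcar2, Ccl12 and Tnf, more of TBI+IL-25, than any other cluster. Atf3 stood at 587 and 1318 CPM in cluster 0 of TBI+PBS and TBI+IL-25, against 253 in the sham cells of cluster 4. In cluster 10, led by Spp1, Atf3 stood at 729 and 1002 and Gadd45b at 75.3 and 249.8, while Jun stood at 2377 and 2169 and Klf2 at 482 and 389, both lower than in cluster 0 (4392 and 4571 for Jun, 1153 and 1331 for Klf2). Jun was also lower in the injured libraries inside cluster 4, at 8442, 6506 and 6785. Cluster 16, with a median of 1563 UMIs and 8, 107 and 350 cells, stood lowest for Jun, Atf3 and Klf2 among the clusters of TBI+PBS and TBI+IL-25.

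**Figure D4:**
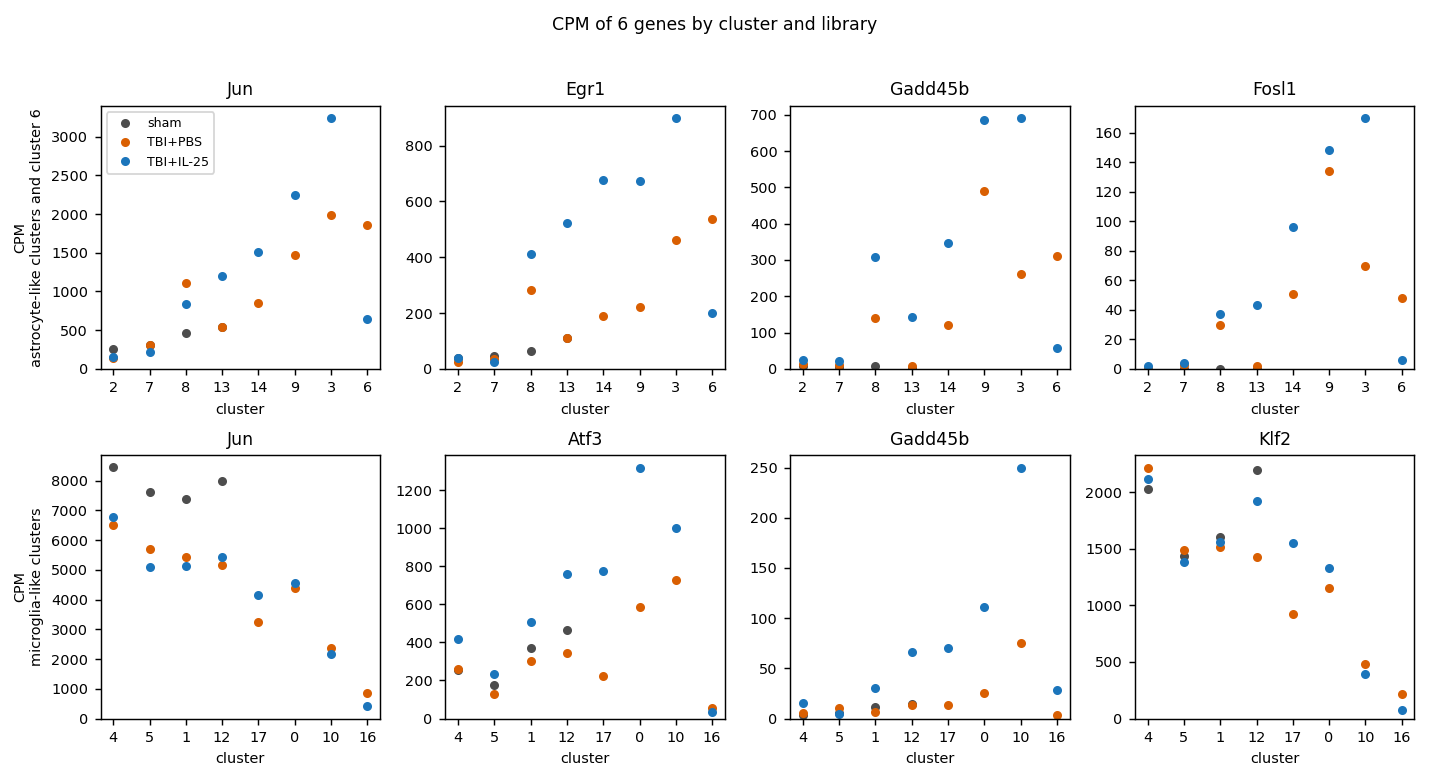
CPM of Jun, Egr1, Gadd45b and Fosl1 in astrocyte-like clusters and the unnamed cluster 6 (top) and of Jun, Atf3, Gadd45b and Klf2 in microglia-like clusters (bottom), 1 point per library where it has at least 50 cells in the cluster. The astrocyte-like clusters 2 and 7 are low in all 3 libraries while 9 and 3 are high, and Jun and Klf2 are low in the microglia-like clusters 10 and 16.

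Shares of cells with a UMI followed the levels. After each cell was thinned to 1000 UMIs, Jun was found in 19.4%, 29.0% and 67.0% of astrocyte-like cells and in 97.6%, 88.5% and 85.8% of microglia-like cells (unthinned 52.3%, 55.8% and 75.8%, and 98.8%, 95.3% and 91.1%). Egr1 was found in 3.59%, 8.36% and 38.5% of astrocyte-like cells, with a TBI+IL-25 interval of 37.1% to 39.9% (unthinned 13.4%, 20.6% and 56.8%). Gadd45b was found in 0.782%, 6.16% and 28.1% of astrocyte-like and 0.693%, 1.54% and 7.52% of microglia-like cells (unthinned 2.79%, 13.2% and 45.4%, and 2.02%, 6.81% and 23.5%). Fosl1 was found in 0 of 2813 sham astrocyte-like cells, which allows up to 0.131% of cells with a UMI at this depth and sets no limit on cells that express it, and in 1.80% and 10.4% of those of the injured libraries. Thinning left out 445, 653 and 1228 astrocyte-like cells and 94, 60 and 162 microglia-like cells with fewer UMIs.

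The number of genes of the set with a UMI in a thinned cell had medians of 1, 2 and 6 in astrocyte-like cells and 10, 9 and 12 in microglia-like cells. The 10th to 90th percentiles ran from 0 to 3, 0 to 6 and 1 to 10 in astrocyte-like cells and from 6 to 14, 4 to 14 and 4 to 17 in microglia-like cells. These ranges did not overlap in sham and overlapped in both injured libraries. Correlations were computed between genes found in at least 30% of the cells of a class. Across microglia-like cells Jun and Jund were the most closely related of these pairs in each library, with Spearman correlations of 0.455, 0.624 and 0.655 over 4907, 4534 and 5372 cells. Jun and Gadd45b were the closest pair in astrocyte-like cells of TBI+IL-25, at 0.593 over 4826 cells. The cells share a library and differ in depth, and after thinning these 4 values were 0.335, 0.457, 0.478 and 0.386. In sham astrocyte-like cells, where 6 genes met the limit, none of the 15 pairs exceeded 0.173.

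Related genes outside the set are given by list. Of 30 other immediate and delayed early genes, 15 of 27 measured were at least 2-fold higher in astrocyte-like cells in TBI+PBS and 19 of 28 in TBI+IL-25 against sham, and 7 of 25 and 13 of 26 in microglia-like cells; 0 were lower in astrocyte-like cells and 1 in microglia-like cells of either library. Socs3, a brake on cytokine receptors, had an astrocyte-like ratio of 26.1 (95% interval 20.9 to 32.9) and 159.8 (95% interval 129 to 201). Of the 16 heat shock genes known to respond to tissue dissociation, 6 and 9 were higher in astrocyte-like cells and 7 and 8 in microglia-like cells, and none of the 16 was 2-fold lower. Hspb1 led them in astrocyte-like cells at 369 (95% interval 219.9 to 676) and 687 (95% interval 409 to 1257), and Hspa1a in microglia-like cells of TBI+PBS at 2.99 (95% interval 2.87 to 3.12). The shares of all genes are those printed above for the same comparisons. These 2 lists stood higher beside the set in both classes, as did the ATF4 targets given next. The part of tissue digestion in the result was not tested.

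The remaining 4 lists hold partners and targets. Of 18 ATF4 target genes 5 of 15 and 7 of 15 measured were higher in astrocyte-like cells and 7 of 16 and 10 of 15 in microglia-like cells. Lower were 0 and 1 in astrocyte-like and 1 and 2 in microglia-like cells, where Ddit4 stood lower than sham at 0.121 (95% interval 0.111 to 0.133) and 0.148 (95% interval 0.136 to 0.16). Of 14 other NF-kB genes 1 and 5 were higher and 1 and 2 lower in astrocyte-like cells, and 2 and 4 were higher and 0 lower in microglia-like cells, with Bcl3 in microglia-like cells at 10.6 (95% interval 7.39 to 15.7) and 17.1 (95% interval 12.0 to 25.2). Of 16 regulators of the ERK and SRF pathways 0 and 3 were higher in astrocyte-like and 0 and 2 in microglia-like cells, and 0 and 1 were lower in each class. In microglia-like cells of TBI+PBS 15 of them were measured. Of 16 other AP-1 partners 2 of 14 and 3 of 15 measured were higher and 0 and 1 lower in astrocyte-like cells, and 0 were higher and 2 and 0 lower in microglia-like cells. All genes gave 6.19% and 12.5% higher and 3.7% and 25.3% lower in astrocyte-like cells. In microglia-like cells they gave 6.92% and 12% higher and 7.77% and 15.4% lower. Maf, a lineage factor of tissue macrophages, stood at 0.453 (95% interval 0.442 to 0.465) and 0.506 (95% interval 0.494 to 0.518) times sham in microglia-like cells.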

How the data were processed

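Single-cell RNA-seq was deposited for 3 libraries, 1 per group, so no test between groups was possible. The deposited matrices hold UMI counts per gene and cell, which the authors made with Cell Ranger and GRCm39 per the submitters' processing notes; per the file headers the version was 7.2.0 in TBI+IL-25, as in the notes, and 7.1.0 in the other libraries. The matrices held 39536447, 58148289 and 61372408 UMIs in 8939, 10643 and 14222 barcodes, where the labels aimed at 8000 cells, and 27, 24 and 39 barcodes were shared by pairs of libraries.

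Barcodes under 500 UMIs, under 300 genes or over 20% mitochondrial UMIs were dropped. Doublets were scored with scanpy 1.11.5 and 201, 299 and 640 were removed at a score above 0.2, a threshold set after the scores were seen (the automatic one marks 106, 252 and 657). Clustering used 2000 variable genes, 30 principal components, 15 neighbours and Leiden resolution 1 (python-igraph 0.11.9, leidenalg 0.10.2), with the 34 genes and the 6 related lists left out of the variable genes. Of 28 clusters, 27 were named from markers (13 classes) and 1 stayed unnamed because a gene of another list led it. A marker counted as present in at least 20% of a cluster's cells and at 2 times the median over clusters, and a name needed 3. Class totals are sums of UMIs, given as CPM.

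A gene was measured for general and specific calls, and for microglia-like against astrocyte-like cells, with at least 50 UMIs over the compared classes, and for ratios between libraries with at least 20 UMIs over both libraries. Ratios have exact conditional binomial 95% intervals, levels exact Poisson ones and shares Clopper-Pearson ones (SciPy 1.17.1). These cover counting error only. A group at 0 was set to the limit of 3 counts for the second class of the specific rule and for lower bounds of a fold. A gene at 0 in any compared class could not be general, and a measured gene at 0 in the second library counted as past 2-fold. Free RNA was estimated per class from microglia markers (astrocyte markers for myeloid classes). The steps were tested on simulated data. Every gene of the set may be named; of the related lists at most the 3 genes per list and class whose interval lies farthest from 1 were named. The members, lists and markers were chosen with earlier results of these data known. The alternatives were other thresholds, resolutions, class assignments, scalings, doublet and UMI filters and free RNA subtraction; counting the unnamed cluster as astrocyte-like and using only the classes shared by all libraries were added after the data were seen. Python 3.11.15, Matplotlib 3.10.9, scikit-learn 1.9.0, pandas 2.3.3 and NumPy 2.4.6 were also used.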

Additional observations from a re-analysis of the deposited data

Results flagged for a closer look

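In 6 cases a gene was at least 2-fold higher than sham in astrocyte-like cells while the interval of its microglial ratio in the same library lay below 1. Genes with a smaller opposite difference, such as Jun in TBI+PBS and Jund in both injured libraries, are not among them. The difference between the classes was not tested, as each group has 1 library. The rule was applied to the genes of the set only, so no share over all genes stands beside the 6 cases. In TBI+PBS against sham, the ratio of Fos was 2.59 in astrocyte-like and 0.944 in microglia-like cells, the latter 1.05 with the median ratio of all genes set to 1. Junb stood at 3.29 and 0.816, and Egr1 at 2.17 and 0.714. In TBI+IL-25 against sham, Jun stood at 7.60 and 0.558 and Btg2 at 2.55 and 0.785. Klf6 stood at 5.96 and 0.874, the latter 1.01 under the same scaling. The astrocyte-like side depends on which clusters fill the class: inside cluster 2 the ratios of Fos, Junb, Egr1, Jun, Klf6 and Btg2 were 0.916, 0.715, 0.658, 0.588, 0.859 and 0.564. With cluster 6 counted as astrocyte-like those of Fos, Junb and Egr1 were 4.89, 5.12 and 6.08, and with each cell classed by its marker score 5.67, 5.94 and 7.63. With free RNA subtracted those of Fos, Junb, Jun, Klf6 and Btg2 were 4.60, 11.8, 42.1, 14.01 and 24.9, and Egr1 had none left in sham. With doublets kept Egr1 and Btg2 stood at 1.44 and 1.80, under 2-fold, and Jun at 4.90. The microglial ratios of Jun, Junb, Egr1 and Btg2 stayed below 1 under each of the 10 alternatives run for them.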

How the results depend on the processing

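Most counts of genes moved by less than 1.5 times when the processing was altered: 194 of 249 alternative values for 18 counts did, and 55 did not. Of 1131 alternative ratios of single genes 691 stayed within the counting interval, 402 moved out of it in the same direction and 38 changed direction; Fosl1 against sham was counted at its bound, and alternatives that leave the second library at 0 for another gene have no value. No paired analysis was possible because each group has 1 library, and for the same reason no replicate could be left out.

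The choice of clusters mattered most. Inside the 1 cluster that both libraries fill most, the genes at least 2-fold higher were 1 in microglia-like and 1 in astrocyte-like cells in TBI+PBS against sham, with 1 lower in each. They were 6 and 4 in TBI+IL-25 against sham, with 1 lower in astrocyte-like cells, and 3 and 2 against TBI+PBS, with 0 lower in microglia-like cells. The share of all genes past 2-fold was not counted inside that cluster. Clusters group cells of like expression, so this setting leaves out cells whose expression placed them elsewhere. It cannot show whether a difference over the whole class holds. Cluster 2 held 947, 1130 and 929 astrocyte-like cells and cluster 1 held 631, 2000 and 991 microglia-like cells. Genes past 2-fold over the whole class also changed direction inside that cluster. For TBI+PBS against sham in microglia-like cells these were Maff at 0.831, Ier3 at 0.931, Ier5l at 0.791, Gadd45b at 0.531, Nfkbiz at 0.994. For TBI+PBS against sham in astrocyte-like cells these were Fos at 0.916, Junb at 0.715, Atf3 at 0.901, Egr1 at 0.658, Egr2 at 0.873, Klf6 at 0.981, Gadd45g at 0.621, Nfkbiz at 0.762. For TBI+IL-25 against sham in microglia-like cells these were Egr3 at 0.613, Nr4a2 at 0.706, Ier5l at 0.807. For TBI+IL-25 against sham in astrocyte-like cells these were Jun at 0.588, Egr1 at 0.983, Egr2 at 0.347, Egr3 at 0, Nr4a2 at 0.867, Klf4 at 0.599, Klf6 at 0.859, Btg2 at 0.564, Gadd45g at 0.575, Nfkbiz at 0.82. For TBI+IL-25 against TBI+PBS in microglia-like cells these were Fosl1 at 0.574. For TBI+IL-25 against TBI+PBS in astrocyte-like cells these were Egr3 at 0, Nr4a1 at 0.682, Klf6 at 0.876, Ier2 at 0.901, Ier5l at 0.987, Btg2 at 0.953, Gadd45g at 0.926. With cluster 6 counted as astrocyte-like, at resolution 0.5 and with each cell classed by its marker score, 11 genes were higher in astrocyte-like cells in TBI+IL-25 than in TBI+PBS, with Egr3 at 0.525, 0.525 and 0.440 and, by marker score, 1 gene lower. Microglia-like cells then had 11, 11 and 12 genes higher and 1 lower, so the larger astrocyte-like count was lost under these settings. With free RNA subtracted, microglial Fosl1 stood at 0 for the same comparison.

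Specific genes numbered 18, 4 and 7 at a 2-fold threshold and 4, 1 and 0 at a 5-fold one. By marker score they numbered 2, 0 and 0, while general ones became 1 (TBI+PBS) and 2 (TBI+IL-25). General genes numbered 0 in sham and 0 in TBI+IL-25 at 3 times, 2 (TBI+PBS) and 6 (TBI+IL-25) at 10 times, and 0 in sham with free RNA subtracted. Lineages in place of classes gave 6 (TBI+PBS) and 3 (TBI+IL-25) specific genes, and the shared classes gave 9 and 4, with 2 general in TBI+IL-25. Specific genes of TBI+IL-25 numbered 2 at resolution 0.5, 3 with cells weighing equally and 2 with free RNA subtracted.

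At a fold of 1.5, genes lower than sham numbered 2 in microglia-like and 1 in astrocyte-like cells of either injured library, and 22 were higher in microglia-like cells of TBI+IL-25 than of TBI+PBS. At a fold of 3, microglial genes higher numbered 6 in TBI+PBS against sham and 3 in TBI+IL-25 against TBI+PBS, with 0 lower, and astrocyte-like ones 14 in the latter. The count lower in astrocyte-like cells of TBI+PBS than of sham became 1 with the members kept among the variable genes, with doublets kept and with cells of at least 1000 UMIs. In microglia-like cells, with doublets kept or cells weighing equally, 1 gene was lower in TBI+IL-25 than in sham and 0 than in TBI+PBS, and a minimum of 200 UMIs also gave 0 there. Depth limits the small classes: sham holds 37 endothelial-like cells.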
